A study of Rattus norvegicus with 45 samples.

Results

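The nuclear-encoded subunits of the mitochondrial respiratory chain and of the ATP synthase were followed across 8 tissues of male spontaneously hypertensive rats (SHR). They were chosen by gene symbol as the rows of both expression tables named Ndufa, Ndufb, Ndufc, Ndufs or Ndufv with a number, Sdha to Sdhd, Uqcr, Cox4 to Cox8, Cycs or Atp5, without the Ndufaf assembly factors, which gave 87 of 20794 genes. Of these, 36 belong to complex I, 4 to complex II, 8 to complex III, 21 to complex IV (Ndufa4 and its paralogue Ndufa4l2 included) and 17 to complex V, and 1 is cytochrome c. The treated rats received empagliflozin, spelled empaglifozin in the labels, an inhibitor of the kidney glucose transporter SGLT2, by gavage at 10 mg/kg per day for 30 days. The control rats received saline vehicle in the same way. Each arm held 3 rats, which were 8 weeks old and weighed 220 to 260 g. SHR is an inbred strain with hereditary hypertension, so every library, vehicle included, came from a hypertensive rat, and no normotensive strain was analysed here. Both fat depots, the brain, the aorta, the kidney, the lung and the tissue labelled V have 3 libraries in each arm. Atrium was used with empagliflozin alone. The libraries are bulk tissue RNA, so fewer cells of a type and less RNA per cell cannot be told apart.

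The respiratory chain passes electrons from NADH (complex I) and succinate (complex II) through complex III and cytochrome c to oxygen at complex IV, and the proton gradient so made drives the ATP synthase, complex V. In brown fat the uncoupling protein Ucp1 lets the protons return without ATP synthesis, and brown adipocytes are known for a rich respiratory chain with little ATP synthase. Several complex IV subunits exist as isoforms that differ between heart or muscle and other tissues, and the membrane ring of the ATP synthase is built from identical c subunits that come from 3 genes, Atp5mc1, Atp5mc2 and Atp5mc3.

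Promoters are shown for the genes whose isoform choice separated the tissues, Cox8a against Cox8b, Cox6a2, and the 3 c subunit genes. Each runs from 250 bases before to 50 bases after the start of the gene, 5′ to 3′ on the gene's strand, from RefSeq on the rat build GRCr8, which is not the build of the expression tables. Capitals mark matches, on either strand, to 4 short motifs searched by their letters, the NRF1 core TGCGCA, the ETS core CCGGAAG, the ERR core AAGGTCA and the YY1 core AAGATGG, none of which contains another.
Cox8a (chr1:213833574-213833873, minus strand): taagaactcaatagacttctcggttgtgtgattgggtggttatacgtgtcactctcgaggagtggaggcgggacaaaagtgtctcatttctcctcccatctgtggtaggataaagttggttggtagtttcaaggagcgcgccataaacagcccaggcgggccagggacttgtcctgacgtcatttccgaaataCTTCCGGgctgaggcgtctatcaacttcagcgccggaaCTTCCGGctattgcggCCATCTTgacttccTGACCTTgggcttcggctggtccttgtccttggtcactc
Cox8b (chr1:205408224-205408523, minus strand): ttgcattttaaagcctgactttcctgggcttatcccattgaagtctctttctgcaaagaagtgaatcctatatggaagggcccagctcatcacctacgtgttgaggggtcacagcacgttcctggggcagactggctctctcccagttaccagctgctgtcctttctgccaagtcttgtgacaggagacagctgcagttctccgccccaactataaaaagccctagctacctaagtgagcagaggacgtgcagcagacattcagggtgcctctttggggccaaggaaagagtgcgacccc
Cox6a2 (chr1:192219667-192219966, minus strand): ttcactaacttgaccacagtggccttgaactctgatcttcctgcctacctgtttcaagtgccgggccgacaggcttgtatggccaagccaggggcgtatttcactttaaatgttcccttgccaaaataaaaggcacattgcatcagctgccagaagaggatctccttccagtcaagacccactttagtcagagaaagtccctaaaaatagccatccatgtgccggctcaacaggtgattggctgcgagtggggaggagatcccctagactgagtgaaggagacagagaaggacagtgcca
Atp5mc1 (chr10:81523296-81523595, minus strand): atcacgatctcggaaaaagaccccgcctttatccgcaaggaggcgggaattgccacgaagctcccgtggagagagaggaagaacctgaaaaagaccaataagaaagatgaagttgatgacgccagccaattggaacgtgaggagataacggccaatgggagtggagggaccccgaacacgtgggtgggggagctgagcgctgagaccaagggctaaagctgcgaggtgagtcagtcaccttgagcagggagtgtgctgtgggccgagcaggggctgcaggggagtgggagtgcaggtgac
Atp5mc2 (chr7:135678169-135678468, minus strand): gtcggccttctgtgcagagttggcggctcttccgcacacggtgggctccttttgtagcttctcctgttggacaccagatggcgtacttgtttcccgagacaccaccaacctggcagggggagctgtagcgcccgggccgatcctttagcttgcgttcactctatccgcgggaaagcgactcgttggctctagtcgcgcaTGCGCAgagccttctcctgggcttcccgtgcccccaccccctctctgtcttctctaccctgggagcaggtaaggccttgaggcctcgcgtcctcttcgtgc
Atp5mc3 (chr3:79220615-79220914, minus strand): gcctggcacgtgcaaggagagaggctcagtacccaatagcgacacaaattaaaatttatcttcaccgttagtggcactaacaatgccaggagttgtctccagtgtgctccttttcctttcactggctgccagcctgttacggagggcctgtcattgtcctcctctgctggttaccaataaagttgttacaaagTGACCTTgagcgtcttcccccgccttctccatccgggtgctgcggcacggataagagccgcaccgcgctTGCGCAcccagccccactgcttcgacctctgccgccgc
The window of Cox8a, the form found in most tissues, holds 2 ETS cores, 1 YY1 core and 1 ERR core, that of Atp5mc2 an NRF1 core, and that of Atp5mc3 an ERR core and an NRF1 core. In the windows of Cox8b, Cox6a2 and Atp5mc1 none of the 4 strings is present. This is not particular to tissue-bound forms, since Atp5f1b, Cox5a and Cycs, among others, also had none of the 4. RefSeq's table held promoters for 75 of the 87 genes. The NRF1 core was present in 21 of them, 28.0%, against 10.6% of 15400 promoters of genes in the expression tables, and the ETS core also in 21, 28.0%, against 13.3%. The YY1 core was present in 18, 24.0%, against 7.48%, and the ERR core in 10, 13.3%, against 3.42%. The E-box CANNTG, a common string, was present in 62.7% against 67.0%. Among the 12773 promoters of genes with a vehicle tissue mean of at least 1 FPKM, the NRF1 core was present in 12.0% and the ETS core in 15.1%. The YY1 core was present there in 7.76%, the ERR core in 3.11% and the E-box in 64.8%. Such matches describe letters in the window and not binding.

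Levels are in FPKM, which divide a gene's reads by its length and by the size of the library, so genes can be compared per length. The sum of FPKM over all genes differed between libraries, at 414248 to 824205, and the absolute depth is unknown. Some libraries stand apart. A set of 6 brown adipocyte markers, Ucp1 among them, summed to 11826, 295 and 6528 FPKM in the aorta libraries of the empagliflozin arm and to 16002, 879 and 73.5 FPKM in those of the vehicle arm. In brown fat itself the sums were 8298 to 11621 FPKM with empagliflozin and 8704 to 16050 FPKM with vehicle. White fat had 101, 128 and 1731 FPKM of the same markers with empagliflozin, against 68.3 to 99.4 FPKM with vehicle, so empagliflozin white fat library 3 stands above the other 5. The label of the V libraries names liver, while the study's design names ventricle. Their cardiomyocyte markers summed to 46140 to 53178 FPKM with empagliflozin and 47252 to 51339 FPKM with vehicle, and their hepatocyte markers to 33.5 to 37.8 FPKM and 31.3 to 35.8 FPKM, so that they are called V libraries throughout.

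The 87 genes made up a very different part of the RNA in each tissue. In brown fat they held 12.1 ± 0.936% of all FPKM with empagliflozin and 13.9 ± 2.66% with vehicle (SD, n = 3 each, here and below). In the V libraries they held 12.5 ± 0.0910% and 12.6 ± 0.399% in the same arms, and in the atrium, with empagliflozin, 8.03 ± 0.479%. Kidney had 5.81 ± 0.155% with empagliflozin and 5.18 ± 0.153% with vehicle, brain 2.84 ± 0.230% and 2.85 ± 0.108%, and lung, the lowest, 1.58 ± 0.0478% and 1.63 ± 0.0884%. The brown fat and V libraries overlapped within each arm, while lung stayed below every other tissue in both arms. White fat with empagliflozin had 3.24, 3.90 and 7.89%, against 3.08, 3.40 and 2.87% with vehicle. Aorta spread widest, with 13.1, 2.85 and 6.52% with empagliflozin and 18.5, 4.16 and 2.37% with vehicle, and within each arm its order of libraries is that of the brown adipocyte markers. Other markers also differed between these libraries. Smooth muscle markers summed to 302, 12293 and 5328 FPKM with empagliflozin and to 358, 20773 and 18822 FPKM with vehicle, lowest in library 1 of each arm. Erythroid markers reached 138823 FPKM in empagliflozin aorta library 3, against 3506 to 28857 FPKM in the other 5, and oligodendrocyte markers 1138 FPKM in empagliflozin aorta library 2, against 21.7 to 65.6 FPKM in the other 5. Their part in the aorta values was not tested.

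**Figure D1:**
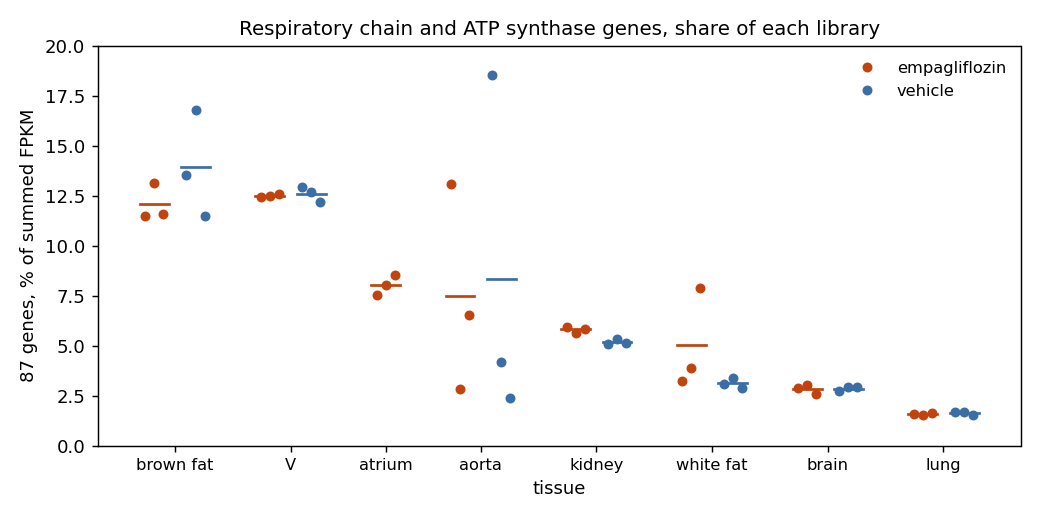
Percent of a library's summed FPKM held by the 87 subunit genes (vertical axis, from 0) in each tissue, with 1 point per library and a bar at the mean; empagliflozin stands left of vehicle, and atrium has empagliflozin only. Brown fat and the V libraries lie between 11.5 and 16.8%, lung near 1.6%, and the aorta libraries run from 2.37 to 18.5%.

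By level, the ATP synthase catalytic subunit beta, Atp5f1b, was the most abundant of the 87 genes, with a mean of 2245 FPKM over all 45 libraries. Cox4i1, the common form of the complex IV subunit 4, averaged 1590 FPKM. Cycs, cytochrome c, which carries electrons between complexes III and IV, averaged 746 FPKM. The most abundant genes of the other complexes were Uqcrq of complex III, 732 FPKM, the membrane arm subunit Ndufb9 of complex I, 727 FPKM, and Sdhb, the iron-sulfur subunit of complex II, 583 FPKM. The least abundant were Ndufs5 of complex I among those above 1 FPKM, 38.9 FPKM, Sdha, the flavoprotein of complex II, 341 FPKM, Uqcrb of complex III, 221 FPKM, and Cox7a1 of complex IV among those above 1 FPKM, 4.39 FPKM. Several rows do not carry their gene's transcript as named now. The row Ndufs6 is a pseudogene in RefSeq, listed at 0 in 36 of 45 libraries, and the row that RefSeq now calls Ndufs6, outside the 87, had a mean of 510 FPKM in vehicle brown fat, 441 FPKM in vehicle V libraries and 54.3 FPKM in vehicle lung. The row Cox7a1 has no entry in RefSeq's table, so its values are uncertain. Atp5pb was listed at 0 in 40 of 45 libraries and reached 21.5 FPKM in another, so it is uncertain as well. A row outside the 87 that RefSeq calls Ndufs5-ps2, a pseudogene, averaged 572 FPKM in vehicle brown fat, 502 FPKM in vehicle V libraries and 115 FPKM in vehicle lung. The row Ndufs5 had 82.2, 55.7 and 12.4 FPKM in the same groups, so the level of Ndufs5 is uncertain too. Cox7b2 and Cox8c, whose products are known from testis, were at 0 in 41 and 43 libraries.

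The complexes kept similar proportions from tissue to tissue, with a few exceptions. Complex I took a mean of 22.5 to 27.2% of the summed FPKM of the 87 genes in every group. Complex V took 34.0% in kidney with empagliflozin and 33.5% with vehicle, but 26.2% and 25.8% in brown fat. Complex IV took 27.0% and 26.5% in kidney, and 31.9% and 32.8% in brown fat. Cycs alone made up 3.95 ± 1.12% in kidney with empagliflozin and 5.38 ± 0.883% with vehicle, and 0.752 to 1.75% on average in the other groups. Over the 7 vehicle tissues, 69 of the 84 genes that passed the filter on low values (a group mean of at least 1 FPKM) had a Pearson correlation above 0.9 with the mean pattern of all 84, as a description, since they share libraries. The highest vehicle mean fell in brown fat for 61 of the 87 genes and in the V libraries for 19, and the lowest in lung for 57 and in brain for 19. The span from the lowest to the highest tissue mean was narrowest for Cox7a2l, a factor in joining complexes III and IV, at 3.14 times, and was 22.3 times for Ndufv1, the subunit of complex I that takes electrons from NADH. It was 86.1 times for Atp5mc1 and 2008 times for Cox8b. The 8 genes with a correlation below 0.5 were Cox6b2, Atp5if1, Cox4i2, Atp5mc1, Ndufa4l2, Cox6a2, Atp5mc3 and Cox8a, which are isoforms, c subunit genes and the ATP synthase inhibitor. The rows outside the 87 with the most similar pattern over these 7 means were the current Ndufs6 row (r = 0.997), Bola3 (0.995), Ndufaf3 (0.995), LOC100362967 (0.993) and Pla2g12a (0.992). The means of LOC100362967 ran only from 0 to 1.24 FPKM, so its correlation is uncertain.

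Each vehicle tissue was then set against the mean of the other 6 with limma on log2(FPKM + 1), over 16539 genes, with Benjamini-Hochberg adjusted p below 0.05 counted as a call. These log2 differences understate those of low genes. In brown fat 74 of 84 subunit genes were higher, against 15.8% of all genes, and 5 were lower, against 41.0%. All 35 tested genes of complex I, all 4 of complex II, all 8 of complex III and Cycs were among the 74, with 14 of 19 of complex IV and 12 of 17 of complex V. The median difference was 1.92, against -0.33 over all genes. Ndufv1 was 2.70 higher in log2 and Cox8b 6.44 higher. The 5 genes lower in brown fat were Cox6a2 (-3.08, adjusted p = 7.69e-06), Atp5mc1 (-3.05, adjusted p = 1.25e-07), Atp5if1 (-1.71, adjusted p = 1.73e-05), Atp5mc3 (-1.13) and Cox6b2 (-1.02). Of these, 3 belong to the ATP synthase. All 5 stayed below 0 under the 3 other scalings, with Cox6b2 not called after quantile normalization (adjusted p = 0.202).

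The V libraries had 79 of 84 genes higher, against 14.2% of all genes, and 2 lower, against 51.0%, with a median of 1.55 against -0.45 over all genes. Cox6a2 was 11.06 higher in log2 (adjusted p = 2.51e-13), Cox8b 6.19, Atp5mc1 4.39, Cox7a1 3.60 and Atp5mc3 2.80. The 2 lower genes were Cox8a (-1.31, adjusted p = 0.0102) and Cox6b2 (-1.17, adjusted p = 0.0140), of which median-ratio scaling no longer called Cox8a (-0.88, adjusted p = 0.147) and quantile normalization Cox6b2 (adjusted p = 0.103). Lung had 75 genes lower, against 19.9% of all genes, and 2 higher, against 40.4%, with a median of -1.72 against 0.27. The 2 genes higher in lung were Cox4i2 (1.18) and Ndufa4l2 (0.74), forms of complex IV subunits known to be induced by low oxygen, while Cox8b (-2.81) and Cycs (-2.62) were the lowest. Ndufa4l2 was not called in lung under median-ratio scaling (0.30, adjusted p = 0.418) or quantile normalization (0.43, adjusted p = 0.177). Brain had 69 genes lower, against 33.9%, and 1 higher, against 35.7%, with a median of -1.37 against -0.01. The gene higher in brain was Atp5if1 (0.64, adjusted p = 0.0228), the inhibitor that stops the ATP synthase from running in reverse, and the lowest were Cox8b (-5.33) and Cox4i2 (-2.43). With TPM in place of FPKM, 43 genes were lower in brain, and the share of all genes in that setting was not counted.

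Kidney was close to the average of the tissues, with 6 genes higher, against 25.0% of all genes, and 6 lower, against 30.7%, or 11 higher and 7 lower after quantile normalization and 4 higher and 6 lower with median-ratio scaling. Cycs was 2.24 ± 0.48 higher (log2 ± SE, adjusted p = 0.000684) and Atp5mc1 1.78 higher (adjusted p = 2.48e-05), while Cox8b (-3.64) and Cox4i2 (-3.00, adjusted p = 4.85e-09) were the lowest. White fat had 19 genes lower, against 22.8%, and 3 higher, against 20.9%, with a median of -0.75 against -0.01. Its 3 higher genes were Cox6b2 (2.99), Cox4i2 (2.32, adjusted p = 3.46e-07) and Ndufa4l2 (1.60), while Cox8b (-3.87) and Cox6a2 (-3.64) were the lowest. Aorta had 8 genes higher, against 10.4%, and 3 lower, against 33.8%, with a median of 0.48 against -0.23, Cox8b (3.03) and Uqcrq (1.32) being the highest and Cox6a2 (-2.81) and Atp5mc1 (-1.38) the lowest. With TPM, aorta had 5 higher and 4 lower, and the shares of all genes under the other scalings were not counted. The counts of aorta, kidney and white fat rest on the vehicle aorta libraries with their unlike levels of brown adipocyte markers. Without vehicle aorta library 1, which has the most of them, aorta had 1 gene higher and 35 lower, kidney had 23 higher and white fat 61 lower, against 18.9%, 31.5%, 28.6% and 29.3% of all genes in the same fit. Without vehicle aorta library 3, which has the least, aorta had 57 genes higher, against 9.39%, and white fat 52 lower, against 24.3%.

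**Figure D2:**
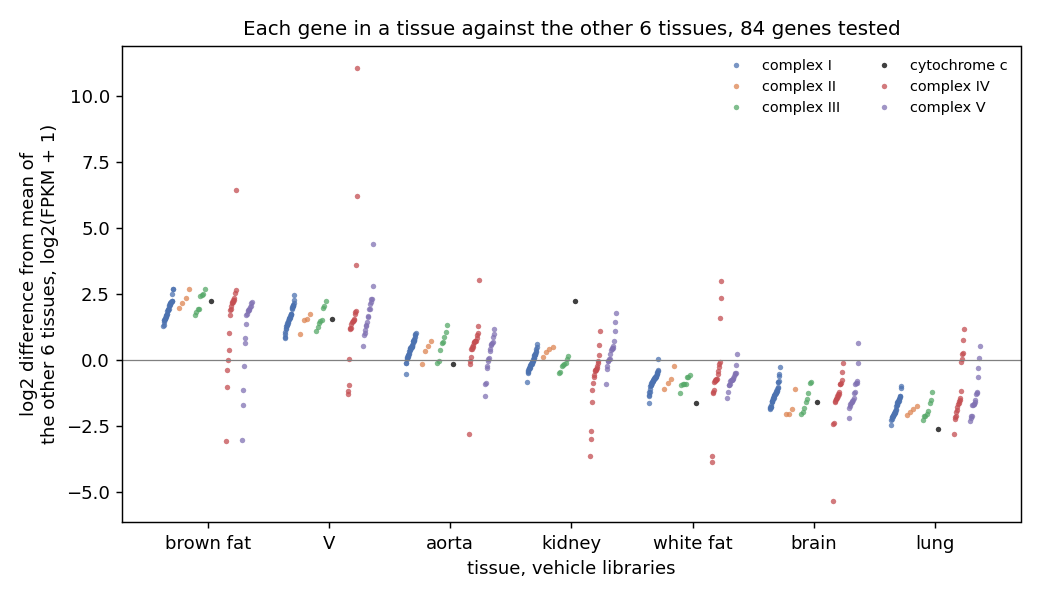
Log2 difference of each subunit gene between a vehicle tissue and the mean of the other 6 vehicle tissues (limma on log2(FPKM + 1)), by complex; each point is a gene. Brown fat and the V libraries lie mostly above 0, with medians of 1.92 and 1.55, and lung and brain mostly below, with medians of -1.72 and -1.37.

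Among the complex IV isoforms, Cox6a2, the heart and muscle form of subunit 6a, was the most tissue-bound. It had 8224, 8630 and 8105 FPKM in the V libraries with empagliflozin and 9148, 8456 and 7136 FPKM with vehicle. The atrium had 4266, 4897 and 4710 FPKM with empagliflozin. In the other tissues the highest value was 73.6 FPKM, in empagliflozin aorta library 1. Of the sum of Cox6a1 and Cox6a2, Cox6a2 held 93.3 ± 0.380% in the V libraries with empagliflozin, 93.8 ± 0.290% with vehicle and 91.8 ± 0.340% in the atrium. All other groups averaged under 3%.

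Cox8b, the heart and muscle form of subunit 8, was high in 2 kinds of tissue. It averaged 1722 FPKM in brown fat with empagliflozin and 2645 FPKM with vehicle, 2007 and 2106 FPKM in the V libraries, and 1082 FPKM in the atrium. Its share of Cox8a and Cox8b was 81.3% in the V libraries with empagliflozin and 82.6% with vehicle, 64.3 ± 1.58% in the atrium, and 39.6 ± 0.994% and 43.0 ± 5.69% in brown fat. Cox8a averaged 442 FPKM in the vehicle V libraries and 3313 FPKM in vehicle brown fat. In the aorta the share of Cox8b was 43.6, 8.98 and 36.9% with empagliflozin and 47.9, 30.5 and 1.81% with vehicle, and its order over the libraries is that of the brown adipocyte markers. In white fat it was 0, 0.0764 and 15.1% with empagliflozin and 0.486, 0.322 and 0.663% with vehicle, the 15.1% being in library 3.

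Cox4i2 and Ndufa4l2 were minor forms everywhere. Cox4i2 had its highest vehicle mean in white fat, with 38.3, 34.4 and 48.9 FPKM, followed by the V libraries at 23.7 ± 5.71 FPKM and lung at 20.01 ± 3.18 FPKM, which overlapped each other, and its lowest in kidney, 0.797 FPKM. As a share of Cox4i1 and Cox4i2 it was highest in lung, 8.98 ± 1.62% with empagliflozin and 5.50 ± 1.17% with vehicle. Ndufa4l2 held 17.7 ± 4.03% of Ndufa4 and Ndufa4l2 in lung with empagliflozin and 12.8 ± 3.92% with vehicle. Cox6b2, known as the testis form of subunit 6b, was also highest in vehicle white fat, at 22.5 ± 5.20 FPKM, where it made up 4.67% of Cox6b1 and Cox6b2. In vehicle kidney and V libraries Cox6b2 stayed below 2 FPKM. The paired common forms were far higher, with Cox6b1 at 455 ± 46.4 FPKM and Ndufa4 at 313 ± 97.0 FPKM in vehicle white fat.

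**Figure D3:**
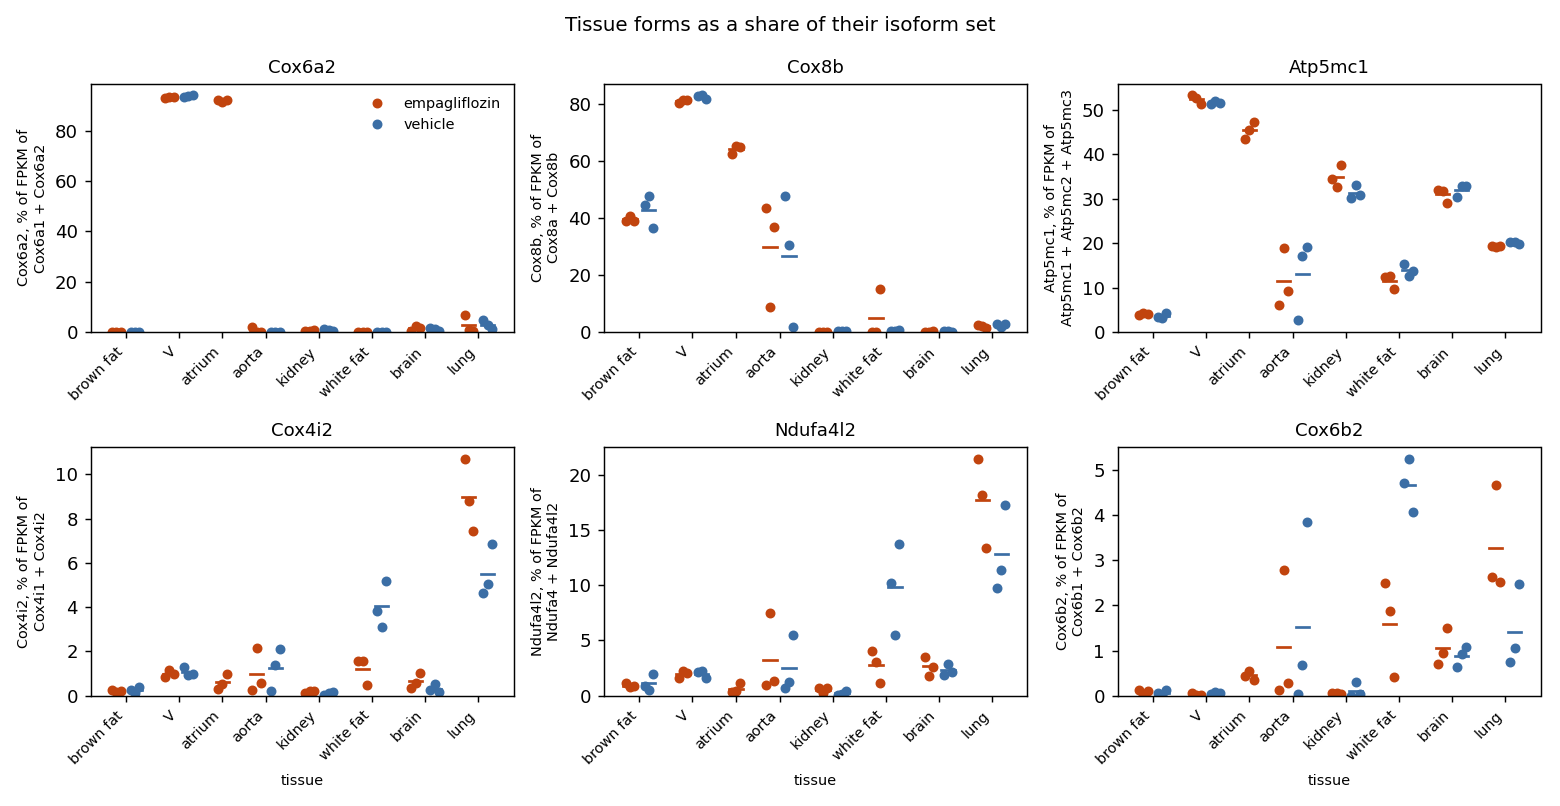
Share of the minor or tissue-bound isoform in the summed FPKM of its isoform set (percent, vertical axis) in each tissue, 1 point per library, empagliflozin left of vehicle. Cox6a2 is above 90% in the V libraries and the atrium and averages under 3% elsewhere, and Cox8b is high in the V libraries, the atrium and brown fat.

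Within the ATP synthase, 12 of 17 genes were higher in brown fat, as given above, while the c subunit genes Atp5mc1 and Atp5mc3 and the inhibitor Atp5if1 were lower. Atp5f1b had 4348 ± 355 FPKM in brown fat with empagliflozin and 4979 ± 808 FPKM with vehicle, close to the V libraries, with 4178 ± 77.3 and 4191 ± 122 FPKM. Atp5mc1, by contrast, had 24.7, 29.8 and 22.8 FPKM in brown fat with empagliflozin and 22.1, 28.7 and 26.9 FPKM with vehicle, against 2286 ± 19.6 and 2229 ± 230 FPKM in the V libraries. Atp5mc3 had 140.3 ± 26.0 and 138 ± 15.9 FPKM in brown fat, against 1361 ± 84.2 and 1430 ± 116 FPKM in the V libraries. Atp5mc2 lay closer, with 463 ± 43.8 and 560 ± 144 FPKM in brown fat and 707 ± 29.3 and 656 ± 90.0 FPKM in the V libraries. In brown fat Atp5mc2 held 73.7% of the c subunit RNA with empagliflozin and 76.98% with vehicle, and Atp5mc1 4.09 ± 0.179% and 3.64 ± 0.573%. In the V libraries Atp5mc1 held 52.5 ± 1.02% and 51.6 ± 0.263%, and in vehicle white fat Atp5mc3 held 46.7%.

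Per Atp5f1b, the 3 c genes together reached 0.151, 0.147 and 0.136 in brown fat with empagliflozin and 0.125, 0.158 and 0.152 with vehicle. This ratio was 1.04 and 1.03 in the V libraries, 0.915 and 0.873 in kidney, 0.902 and 0.8997 in brain and 1.62 in both arms in lung. White fat had 0.584, 0.595 and 0.466 with empagliflozin and 0.734, 0.697 and 0.860 with vehicle. Brown fat did not overlap with any of these tissues. The aorta libraries gave 0.134, 1.01 and 0.179 with empagliflozin and 0.168, 0.953 and 0.946 with vehicle, and the 3 libraries with values near those of brown fat are the 3 with the most brown adipocyte markers. The inhibitor and a stalk part of the ATP synthase were also low in brown fat relative to Atp5f1b. Atp5if1 reached 0.0101 of Atp5f1b in brown fat with empagliflozin and 0.00991 with vehicle, against 0.461 and 0.417 in lung. Atp5pf, coupling factor 6 of the stalk, reached 0.0543 and 0.0527 in brown fat, against group means of 0.211 (empagliflozin white fat) to 0.451 (empagliflozin lung) in the tissues other than aorta. In the aorta libraries it was 0.0554, 0.336 and 0.0741 with empagliflozin and 0.0583, 0.384 and 0.406 with vehicle, so that the same 3 aorta libraries lay near brown fat.

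**Figure D4:**
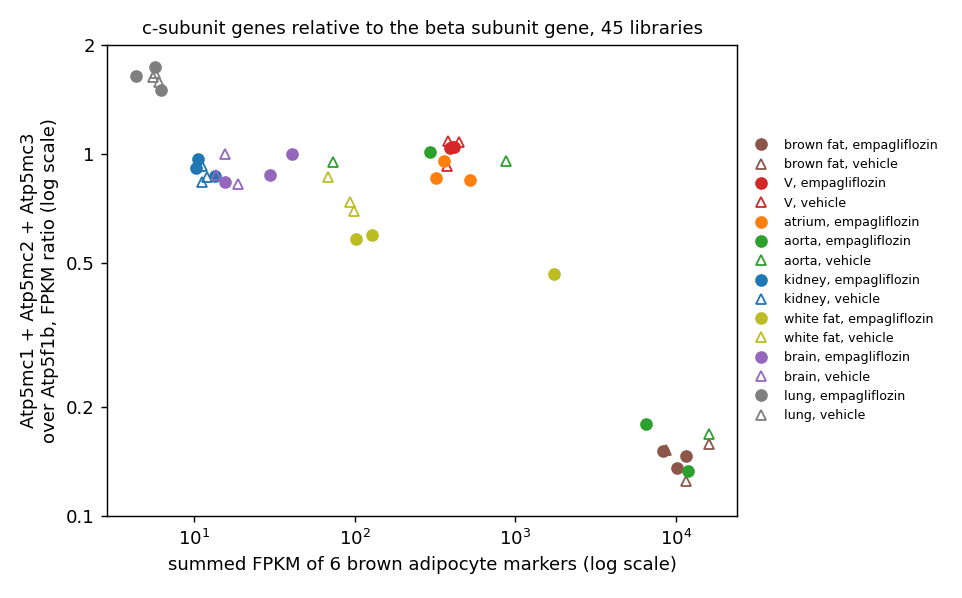
Summed FPKM of Atp5mc1, Atp5mc2 and Atp5mc3 divided by the FPKM of Atp5f1b (vertical axis, log scale), 1 point per library. The horizontal axis is the summed FPKM of 6 brown adipocyte markers (log scale). Colours mark the tissues, filled circles empagliflozin and open triangles vehicle. Brown fat lies between 0.125 and 0.158 and lung near 1.62, and 3 of the 6 aorta libraries lie between 0.134 and 0.179.

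The atrium was compared with the V libraries within the empagliflozin arm. Of 83 tested subunit genes 68 were lower in the atrium, against 14.5% of 12541 genes, and 3 were higher, against 37.2%, with a median log2 difference of -0.67 against 0.21 over all genes. All 3 libraries of the atrium lay below all 3 V libraries for 71 genes, against 17.5% of all genes. The lowest were Cox7a1 (-2.46), Ndufa4l2 (-2.09) and Cox4i2 (-1.60). Sdhb (-1.35), Uqcrc1, a core protein of complex III (-1.33), and Ndufv1 (-1.11) were examples from the other complexes. Sdhb had 328, 376 and 417 FPKM in the atrium against 936, 993 and 927 FPKM in the V libraries. The 3 genes higher in the atrium were Cox6b2 (1.91, adjusted p = 0.000795), Cox8a (0.36, adjusted p = 0.0306) and Atp5if1 (0.30, adjusted p = 0.0308). With median-ratio scaling Cox6b2 alone was called (1.76), with Cox8a at 0.11 and Atp5if1 at 0.05. Summed cardiomyocyte markers were 113260, 128479 and 71841 FPKM in the atrium and 50973, 53178 and 46140 FPKM in the V libraries. Nppa, the atrial natriuretic peptide, alone had 68778, 82195 and 27401 FPKM in the atrium, against 1578, 1801 and 25.3 FPKM in the V libraries. The atrial sums followed the order of Nppa, so they do not show how the other cardiomyocyte markers compare. The part of Nppa in the scale of the other genes was not tested.

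With empagliflozin, no subunit gene passed the adjusted threshold in any of the 7 tissues (limma, 81 to 84 genes tested per tissue). Among all genes 0% were called in kidney, aorta, brain and lung, 0.0085% in brown fat, 0.00785% in white fat and 0.0085% in the V libraries, so that the comparisons called almost nothing else either. The counts and values that follow are descriptions of 3 libraries against 3.

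In kidney, 71 of 81 subunit genes were higher with empagliflozin, with a median log2 difference of 0.17 against 0.10 over all genes. The 3 empagliflozin libraries lay above all 3 vehicle libraries for 29 genes, against 13.6% of all genes, and below for 2, against 5.56%. At an unadjusted p below 0.05, 12 genes were higher, against 8.47% of all genes, and 2 lower, against 3.24%. Cox7b, a small complex IV subunit, had 803, 577 and 802 FPKM with empagliflozin and 402, 532 and 489 FPKM with vehicle (log2 difference 0.61 ± 0.19, adjusted p = 0.418). Cox7a2, the common form of subunit 7a, had 255, 297 and 227 FPKM against 182, 215 and 166 FPKM in the same arms (0.46 ± 0.15, adjusted p = 0.418). In both genes the arms did not overlap. Ndufs1, the largest iron-sulfur subunit of complex I, had 117, 129.7 and 143 FPKM with empagliflozin and 108, 95.6 and 105 FPKM with vehicle (0.33 ± 0.11, adjusted p = 0.418).

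The lower genes in kidney were few. Cox8b had 2.12, 3.51 and 2.49 FPKM with empagliflozin and 5.87, 5.02 and 4.36 FPKM with vehicle (-0.72 ± 0.19, adjusted p = 0.418). Without empagliflozin kidney library 2 it was called (-0.88 ± 0.18, adjusted p = 0.0476), at a level near the low end of the scale. The share of all genes called in that fit was not counted. Ndufs5 had 39.4, 35.1 and 35.2 FPKM against 42.1, 41.6 and 45.8 FPKM (-0.23 ± 0.10, adjusted p = 0.418). The more abundant row Ndufs5-ps2 had 294, 263 and 254 FPKM with empagliflozin and 223, 274 and 231 FPKM with vehicle. How reads were split between these rows was not tested. Cycs, high in this tissue, had 1362, 1613 and 898 FPKM with empagliflozin and 1721, 1372 and 1657 FPKM with vehicle (-0.33), and its arms overlapped. Summed proximal tubule markers were 1768 to 2383 FPKM with empagliflozin and 2548 to 3309 FPKM with vehicle, and those from the loop of Henle to the collecting duct were 4689 to 5698 FPKM and 4346 to 4597 FPKM. Their part in the subunit values was not tested. The size of the shift depends on the scale, since median-ratio scaling moved the median of all kidney genes by -0.12 and that of the subunit genes to 0.03, while it moved the median of all genes by 0.18 in white fat and -0.19 in aorta.

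White fat had the median farthest from 0, with 77 of 81 genes higher with empagliflozin and a median of 0.63 against -0.18 over all genes. The medians were 0.63 in complex I, 0.85 in complex II, 0.81 in complex III, 0.55 in complex IV and 0.54 in complex V. It rests on empagliflozin library 3, in which 78 of 81 genes lay above the vehicle mean, with a median ratio to it of 3.22. Library 1 had 33 genes above that mean and a median ratio of 0.955, and library 2 had 73 and 1.24. Without library 3 the median log2 difference was 0.13. Library 3 is also the one with 1731 FPKM of brown adipocyte markers and 591.7 FPKM of Ucp1, which had 0 and 1.24 FPKM in the other empagliflozin libraries and 6.41, 3.92 and 5.19 FPKM with vehicle. Of the markers of other cells in white fat, mesothelial ones summed to 135 to 268 FPKM with empagliflozin and 13.9 to 90.9 FPKM with vehicle, and fibroblast ones to 467 to 915 FPKM and 1207 to 1668 FPKM. Hepatocyte markers reached 426 FPKM in empagliflozin library 3, against 20.1 to 114 FPKM in the other 5 libraries. Airway markers summed to 78.2, 50.5 and 0.630 FPKM with empagliflozin and to at most 0.130 FPKM with vehicle, and markers of alveolar type 2 cells to 62.9, 33.4 and 0 FPKM with empagliflozin and to at most 0.170 FPKM with vehicle. Their part in the result was not tested.

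At an unadjusted p below 0.05, 6 genes were higher in white fat with empagliflozin, against 2.66% of all genes, and 3 lower, against 6.02%. The 2 arms did not overlap for 9 higher genes, against 5.09%, and 3 lower genes, against 12.1%. The 3 lower genes were the minor complex IV forms called higher in vehicle white fat than in the mean of the other tissues. Cox4i2 and Ndufa4l2 among them were also called higher in lung. Cox4i2 had 13.8, 17.9 and 12.9 FPKM with empagliflozin and 38.3, 34.4 and 48.9 FPKM with vehicle (log2 difference -1.38 ± 0.21, adjusted p = 0.325). Ndufa4l2 had 15.0, 14.3 and 13.1 FPKM against 32.4, 24.7 and 37.2 FPKM (-1.08 ± 0.20, adjusted p = 0.325), and Cox6b2 11.3, 10.8 and 6.05 FPKM against 21.6, 28.1 and 17.8 FPKM (-1.20 ± 0.28, adjusted p = 0.435). In all 3 genes every empagliflozin library was below every vehicle library, libraries 1 and 2 as well as 3.

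Of the higher genes in white fat, Ndufs1 had 56.7, 62.9 and 110.2 FPKM with empagliflozin and 32.6, 43.1 and 25.7 FPKM with vehicle (1.13 ± 0.30, adjusted p = 0.477). Sdha had 165, 195 and 325 FPKM against 115, 155 and 101.4 FPKM (0.84 ± 0.30, adjusted p = 0.553). Ndufa10l1, a row named after the complex I subunit Ndufa10, differed by 1.18 ± 0.39 (adjusted p = 0.532), and Cycs had 213, 266 and 836 FPKM against 150.5, 178 and 141 FPKM (1.21 ± 0.49, adjusted p = 0.571). In each of these genes library 3 was the highest.

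Whether the difference in white fat departs from that in the other tissues was tested as an interaction over 42 libraries, white fat against the mean of the other 6. Cox4i2 passed, with -1.61 ± 0.29 (limma, adjusted p = 0.00396), and was the only subunit gene to do so among 84 tested, against 0.375% of 16822 genes. Next came Ndufa4l2, with -1.34 ± 0.36 (adjusted p = 0.103). The call on Cox4i2 was not made with a pseudocount of 0.1 nor without white fat vehicle library 3. Median-ratio scaling and quantile normalization, added after seeing the data, kept it (-1.36 ± 0.28, adjusted p = 0.0164, and -1.44 ± 0.26, adjusted p = 0.00377). Where it was made, its adjusted p ran from 0.0013 to 0.0412 over the alternatives, and it was 0.0371 without the empagliflozin library 3 of white fat. No subunit gene passed the same test for kidney, where 0.797% of all genes did, aorta (0.0951%), brain (0.487%), brown fat (0%), lung (0.737%) or the V libraries (0.0178%). At an unadjusted p below 0.05 kidney had 2 higher genes, Ndufa4l2 and Cox4i2, against 4.71% of all genes, and 0 lower, against 3.23%. Lung had 2 higher, Cox6b2 and Cox4i2, against 2.66%, and 0 lower, against 2.52%, and brain 1 higher, Cox4i2, against 2.63%, and 0 lower, against 2.66%. Aorta had 0 higher, against 10.8%, and 1 lower, Atp5pf, against 2.52%, the V libraries 0 higher, against 0.523%, and 1 lower, the uncertain Atp5pb, against 1.25%, and brown fat 0 in either direction, against 0.511% and 0.452%. In lung, Cox4i2 stood the other way, with 39.2, 30.2 and 25.7 FPKM with empagliflozin and 17.6, 18.9 and 23.6 FPKM with vehicle (empagliflozin minus vehicle 0.63 ± 0.18, adjusted p = 0.634).

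**Figure D5:**
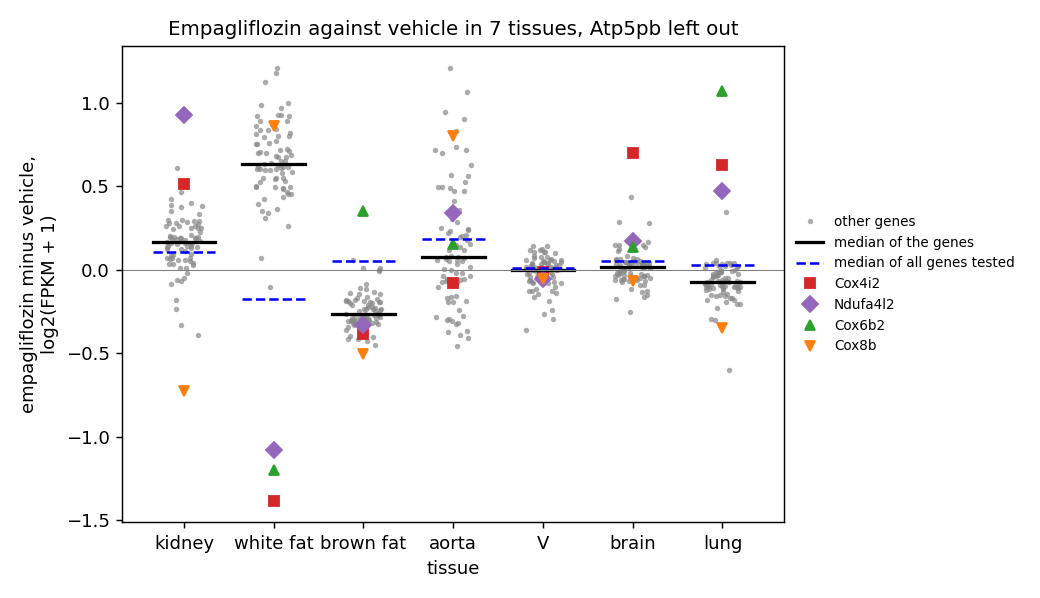
Log2 difference, empagliflozin minus vehicle, of each subunit gene by tissue (limma on log2(FPKM + 1), vertical axis), 1 point per gene; Atp5pb is left out. White fat has its median at 0.63 with Cox4i2, Ndufa4l2 and Cox6b2 below -1, kidney at 0.17, brown fat at -0.26, and no point passed the adjusted threshold.

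In brown fat 78 of 83 genes were lower with empagliflozin, with a median of -0.26 against 0.05 over all genes, and the medians of complexes I to V lay between -0.30 and -0.17. Ndufv3 alone had all empagliflozin libraries below all vehicle libraries, against 2.54% of all genes, and 0 had them all above, against 5.84%. No gene had an unadjusted p below 0.05, against 2.38% higher and 1.18% lower among all genes. The lowest p were those of Ndufa10l1 (-0.28), Ndufb8 (-0.41) and Atp5f1c (-0.31), each with an adjusted p of 0.994. The few higher genes included Cox6b2 (0.35), Cox7a1 (0.06) and Sdha (0.01). Vehicle library 2 had the highest share of subunit RNA and the most brown adipocyte markers, 16050 FPKM. Without it the median was -0.03.

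In lung 66 of 84 genes were lower with empagliflozin, by a median of -0.08 against 0.03 over all genes. At an unadjusted p below 0.05, 3 genes were higher, against 4.59% of all genes, and 0 lower, against 3.03%. These were Ndufs7, an iron-sulfur subunit of complex I, with 92.7, 84.8 and 87.8 FPKM with empagliflozin and 69.3, 65.2 and 74.0 FPKM with vehicle (0.34 ± 0.09, adjusted p = 0.616), Cox4i2, and Cox6b2, with 7.47, 12.6 and 6.89 FPKM against 2.14, 3.14 and 6.59 FPKM (1.07 ± 0.35, adjusted p = 0.634). The arms did not overlap for these 3 genes, against 8.01% of all genes, and for 2 lower genes, against 4.84%. Mesothelial markers in lung summed to 306 to 378 FPKM with empagliflozin and 197 to 237 FPKM with vehicle, and their part was not tested. The lowest p among the lower genes were those of Ndufb11 (-0.17), Cox7b (-0.30) and Cycs (-0.30), with an adjusted p of 0.678 each.

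Brain, V libraries and aorta differed less between the arms or varied too much within them. In brain the median was 0.01 against 0.05 over all genes, 44 of 82 genes were higher, and the arms did not overlap for 3 higher genes, against 3.64%, and 1 lower gene, against 2.29%. Its lowest p were those of Ndufs5 (0.28), Cox4i2 (0.70) and Sdhd (0.17) upward and Ndufb6 (-0.17), Ndufa5 (-0.25) and Ndufa10 (-0.13) downward, and no gene had an unadjusted p below 0.05, against 1.45% higher and 1.12% lower. The row Ndufs5-ps2 averaged 162.7 FPKM in brain with empagliflozin and 162.3 FPKM with vehicle. In the V libraries the median was 0.00 against 0.01, and no gene had arms that did not overlap, against 5.21% higher and 3.87% lower. At an unadjusted p below 0.05 it had 2 lower genes, against 2.34%, which were the uncertain Atp5pb (-2.74) and Cox6c (-0.36 ± 0.16, adjusted p = 0.999), and 0 higher, against 1.72%. Next were Ndufb3 (-0.30) downward and Ndufb4 (0.15), Cox6a1 (0.14) and Atp5f1d (0.12) upward, in all of which the arms overlapped. In aorta the median was 0.08 against 0.18, no gene had arms that did not overlap, against 5.59% higher and 1.16% lower, and none had an unadjusted p below 0.05, against 1.01% and 0.0905%. Ndufs1 differed by 1.06 ± 1.20 in aorta, Sdha by 0.91 ± 1.13 and Ndufa4l2 by 0.34 ± 0.42, which is less than their errors. The lowest p downward were those of Atp5pf (-0.41 ± 0.36), Atp5mc3 (-0.29 ± 0.38) and Atp5mc2 (-0.37 ± 0.54). Without vehicle aorta library 1 the aorta median was 1.01, and without vehicle aorta library 3 it was -0.60.

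Genes outside the 87 were counted from 4 lists. None of 44 assembly factor rows, 17 regulators, 13 enzymes of the citric acid cycle and 15 genes of energy transfer and the inner membrane passed in any of the 7 comparisons of the arms. Without empagliflozin kidney library 2, Uqcc2 (0.54, adjusted p = 0.049) and Ckmt1 (1.65, adjusted p = 0.027) were called in kidney. The median over all genes in that fit was 0.15, against 0.10 with all libraries, and the share of all genes called was not counted. Of the citric acid cycle genes 13 of 13 were higher in white fat (median 0.87), 12 of 13 in kidney (0.17) and 13 of 13 in aorta (0.94), and 13 of 13 were lower in brown fat (-0.13). Over all genes the medians were -0.18, 0.10, 0.18 and 0.05 in the same order. Without empagliflozin white fat library 3 the white fat median of this list was 0.43. In aorta the list median was 1.99 without vehicle library 1 and 0.10 without vehicle library 3, and 0.13 without empagliflozin library 1 and 1.94 without empagliflozin library 2. The medians over all genes in these 4 fits were 0.02, 0.31, 0.24 and 0.05. In brown fat the list median was -0.07 without vehicle library 2. Cs, citrate synthase, differed by 1.06 ± 0.30 in white fat (adjusted p = 0.490) and by 0.41 ± 0.13 in kidney (adjusted p = 0.418). Dld, the lipoamide dehydrogenase, differed by 0.73 ± 0.27 and 0.34 ± 0.12 in the same tissues. Assembly factors were higher in white fat for 40 of 44 rows (median 0.34, or 0.09 without empagliflozin library 3), with the lowest p for Lyrm7 (0.54) and the heme maker Cox10 (0.54). In kidney Uqcc2 (0.46) and Cox10 (0.44) had the lowest p among them. Of the energy transfer genes, the mitochondrial creatine kinase Ckmt1 differed by 1.21 ± 0.40 in kidney, and the outer membrane channel Vdac1 by 0.60 ± 0.22 and Immt, which shapes the cristae, by 0.62 ± 0.23 in white fat. Of the 17 regulators in kidney 11 were higher and 6 lower, with a median of 0.11 against 0.10 over all genes. Among the higher ones, the nuclear receptors Esrra and Esrrg differed by 0.30 ± 0.11 and 0.64 ± 0.23 (adjusted p = 0.418 each).

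Between the vehicle tissues, all 13 citric acid cycle genes were higher in brown fat, against 15.8% of all genes, and all 13 lower in lung, against 19.9%, and 10 were higher in the V libraries, against 14.2%. Of the 44 assembly factor rows 32 were higher and 0 lower in brown fat, where 15.8% and 41.0% of all genes were. In the V libraries 23 were higher and 3 lower, against 14.2% and 51.0%, and in lung 1 was higher and 29 lower, against 40.4% and 19.9%. Among the 17 regulators, 8 were higher in brown fat, led by the fatty acid sensor Ppara (4.23 ± 0.49) and the coactivator Ppargc1b (2.05 ± 0.26), and 2 lower, among them the corepressor Nrip1 (-0.88 ± 0.30). Ppargc1a, the coactivator PGC-1 alpha, was 0.62 ± 0.20 higher in brown fat and 1.93 ± 0.20 higher in the V libraries. In the atrium against the V libraries, with empagliflozin, 12 of 13 citric acid cycle genes and 28 of 44 assembly factor rows were lower, against 14.5% of all genes, and none of either was higher, against 37.2%.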

How the data were processed

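The labels describe BGIseq500 sequencing of total RNA, 45 libraries with unpaired reads 50 bases long. HISAT2 2.0.4, Bowtie2 2.2.5 and the build Rnor 6.0 are named in the submitters' processing notes. The sources used here do not name the counting program. The authors deposited FPKM per gene and library. Depth is unknown, since from the 3126 low genes that could be used the value of 1 read could be set only relative to other libraries.

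Groups followed the labels' tissue and arm, 3 libraries each. Genes reaching a mean of 1 FPKM in any group compared were tested on log2(FPKM + 1) with limma 3.58.1 (R 4.3.3, trended prior), with p-values adjusted by the Benjamini-Hochberg method over all genes. P-values measure the spread between these libraries. In the main fits over several tissues the libraries were treated as independent. Each arm held 3 rats, so libraries of different tissues can come from the same rat, and the labels do not link them. Figures used Python 3.11.15, pandas 2.3.3 and matplotlib 3.10.9. The model was tested on simulated data. The subunits and the lists were chosen with earlier results of these data known. Named were, for each comparison of the arms, called subunits or else the 3 lowest p in each direction, for each tissue the 2 largest differences in each direction, the extremes of each complex, a panel of isoforms and the 5 most similar rows. Alternatives were 3 other scalings, a pseudocount of 0.1, other filters, a replicate block, a fit over all tissues, 1 weight per tissue, and leaving out libraries. Lung was the only tissue in which every same-numbered pair of libraries correlated above 0.1 (r = 0.227 to 0.346). The highest single pair was number 1 in aorta (r = 0.744), where number 3 had -0.187. The labels do not say what the numbers mark.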

Additional observations from a re-analysis of the deposited data

Results flagged for a closer look

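The effect of empagliflozin in white fat, set against its mean in the other 6 tissues, was called for 1 subunit gene, Cox4i2, by a test of the difference itself (-1.61 ± 0.29, limma adjusted p = 0.00396). Cox4i2 was lower with empagliflozin in 3 of 3 white fat libraries and higher in 3 of 3 lung libraries. In neither tissue alone did it pass the adjusted threshold. The interaction call was not made with a pseudocount of 0.1 nor without white fat vehicle library 3. Markers of other cells also differed between the white fat arms, and their part was not tested.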

How the results depend on the processing

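Of 822 values of 50 results under alternatives, 771 stayed within 1.5 times a count or the spread of a value. Counts of 0 that stayed at 0 are among the 771. The spread between libraries was wide in aorta, where the median ran from -0.60 to 1.01 with libraries left out. The 771 is therefore not a measure of how firm the results are. Median-ratio scaling gave a kidney median of 0.034, 1 gene higher in lung, 1 lower in the V libraries and 1 higher in the atrium. Quantile normalization gave 11 genes higher in kidney and 1 higher in lung. TPM gave 5 genes higher in aorta and 43 lower in brain. A pseudocount of 0.1 gave 1 lower in the V libraries and 0 in the white fat interaction. No filter gave 2 higher in brain and 1 higher in the atrium, and the fit over all tissues 1 lower with empagliflozin in white fat. Without the aorta libraries kidney had 23 higher and 14 lower and white fat 66 lower. The cause of these changes was not tested. With libraries left out in turn, calls with empagliflozin ranged from 0 to 1 lower in kidney (Cox8b) and in the V libraries (the uncertain Atp5pb, without vehicle V library 3). Tissue calls ranged from 4 to 23 higher in kidney, 1 to 57 higher and 3 to 35 lower in aorta, 0 to 1 higher in brain, 6 to 61 lower in white fat, 1 to 2 higher in lung, 1 to 3 lower in the V libraries and 1 to 2 higher in the atrium. Interaction calls ranged from 0 to 1 in kidney and brain, 0 to 23 in aorta and 0 to 2 in white fat. The 23 in aorta, like the 23 in kidney, came without vehicle aorta library 1. Without empagliflozin aorta library 2 there were 3 in aorta, and without empagliflozin kidney library 2 or vehicle brain library 2 there was 1 in that tissue. Median-ratio scaling and quantile normalization of the interaction, chosen after seeing the data, changed none of its counts. The replicate block left 0 calls with empagliflozin in every tissue, lung included, and Cox4i2 called in white fat (adjusted p = 0.00390). Depth is unknown, so low genes carry unknown counting error. Apart from the tissue fits without vehicle aorta library 1 or 3, the share of all genes called under these alternatives was not counted. Their counts therefore do not show whether subunit genes stand out from other genes.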

Other observations

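Rows outside the 87 also carry subunit genes. Cyc1, the cytochrome c1 of complex III, which the choice by symbol leaves out, averaged 1509 FPKM in vehicle brown fat, 1015 FPKM in vehicle V libraries and 68.8 FPKM in vehicle lung. The row LOC687508, which RefSeq now calls Cox7a1, averaged 21.2 FPKM in the V libraries with vehicle, 8.18 FPKM in aorta, 8.13 FPKM in lung, 7.34 FPKM in brown fat and 1.83 FPKM in brain. In kidney it had 4.34, 3.3 and 4.85 FPKM with empagliflozin and 1.91, 3.01 and 3.14 FPKM with vehicle.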
